A study of Mus musculus with 2 samples.

Results

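Crx, Nrl, Nr2e3, Prdm1, Thrb, Rxrg and Rorb encode transcription factors that set the fate of photoreceptors, and their transcripts were followed through the cells of the newborn mouse eye. The 7 genes were chosen by symbol, and each matched 1 of the 31053 gene rows in both deposited matrices. Single-cell RNA sequencing (10x Genomics 3′ libraries) had been performed at postnatal day 0 (P0) on total eye cup cells of Myrf fl/fl mice (control) and of Rx>cre Myrf fl/fl mice (mutant). Each genotype was 1 library made from 3 pooled eye cups, without cornea, lens and optic nerve. Floxed Myrf alleles were thus carried by both groups, and the Rx>cre transgene, which makes Cre in the early eye field, is given for the mutant alone. Neural retina and retinal pigment epithelium both arise from the early eye field, so that effects of Cre itself, of Myrf loss in retinal cells and of Myrf loss elsewhere in the eye cannot be told apart. With 1 library per genotype there was no replicate, and no test between genotypes was possible. Each interval below is a 95% interval for counting error only.

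Photoreceptors of the mouse are born in sequence, cones before birth and most rods around birth, from progenitors that pass through a postmitotic precursor. The homeodomain factor OTX2 commits precursors to this lineage and switches on Crx, a homeodomain activator of rod and cone genes, and Prdm1 (Blimp1), a zinc finger repressor that keeps precursors from becoming bipolar cells. Rorb encodes an orphan nuclear receptor that acts upstream of Prdm1 and of Nrl and is also made in progenitors and amacrine cells. Nrl, a basic leucine zipper factor of the Maf family, directs precursors to the rod fate, and its target Nr2e3, an orphan nuclear receptor, holds cone genes down in rods. Thrb, a thyroid hormone receptor, and Rxrg, a retinoid X receptor that can pair with it, act in cones, where they set which opsin is made.

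The genes lie on 6 mouse chromosomes (GRCm38, mm10). Crx spans chr7:15865947-15879968 and Nr2e3 chr9:59942771-59960659, both on the minus strand. Prdm1 spans chr10:44437177-44528501 and Nrl chr14:55518978-55524981, again on the minus strand. Thrb covers chr14:17660261-18038090 and Rxrg chr1:167598384-167639623 on the plus strand, and Rorb covers chr19:18930605-19111196 on the minus strand. Nr2e3 shares bases with the antisense gene Gm7616 and with Gm15507 on its own strand, and Thrb with the antisense gene Gm48321. All 3 have rows of their own in the matrices, and how reads in shared bases had been assigned is not given in the sources used here. Counts at the 3′ end do not separate transcript isoforms, such as those of Thrb.

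Sequence before the start sites is shown for 2 pairs of factors that were high in the same cells, Crx with Prdm1 in precursors and Thrb with Rxrg in cones. The sequences came from RefSeq (GRCm38.p6), in which all 7 genes were matched, with 10 start sites in all. They run 5′ to 3′ on the gene's strand and leave out bases that the annotation counts as exon. The Crx stretch ends at the gene, and the other 3 lie within the annotated gene spans. Capitals mark exact matches to 1 of 3 motifs searched on both strands: TAATCC, a core shared by OTX2 and CRX (in its reverse complement where it lies on the opposite strand), TGCTGA, a core of Maf sites, and AGGTCA, a core of nuclear receptor sites.
Crx, chr7:15879969-15880205, minus strand: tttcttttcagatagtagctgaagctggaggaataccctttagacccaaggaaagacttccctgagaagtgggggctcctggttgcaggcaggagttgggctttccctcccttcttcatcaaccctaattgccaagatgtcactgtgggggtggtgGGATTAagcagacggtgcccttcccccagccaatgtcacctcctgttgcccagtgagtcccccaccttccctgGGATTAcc
Prdm1, chr10:44458749-44458998, minus strand: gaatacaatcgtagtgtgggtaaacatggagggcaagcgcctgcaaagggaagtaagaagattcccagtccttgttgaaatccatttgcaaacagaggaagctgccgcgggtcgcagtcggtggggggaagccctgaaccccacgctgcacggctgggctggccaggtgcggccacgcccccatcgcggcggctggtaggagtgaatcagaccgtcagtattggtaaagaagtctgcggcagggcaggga
Thrb, chr14:17660710-17660891, plus strand: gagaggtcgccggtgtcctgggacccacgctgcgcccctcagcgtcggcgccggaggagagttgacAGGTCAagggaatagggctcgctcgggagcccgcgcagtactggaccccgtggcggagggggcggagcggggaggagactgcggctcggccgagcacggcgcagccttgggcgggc
Rxrg, chr1:167618015-167618264, plus strand: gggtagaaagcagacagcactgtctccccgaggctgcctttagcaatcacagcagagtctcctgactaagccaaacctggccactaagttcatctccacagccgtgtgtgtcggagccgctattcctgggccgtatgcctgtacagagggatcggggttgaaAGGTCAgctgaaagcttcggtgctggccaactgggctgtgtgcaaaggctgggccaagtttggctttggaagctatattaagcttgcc

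Crx held 2 TAATCC cores, both on the opposite strand, with 88 and 15 bases between them and the RefSeq start. Among 32851 promoter windows of 250 bases, 6.25% held this core, 16.1% the Maf core and 14.0% the nuclear receptor core. Thrb had 1 AGGTCA, with 178 bases to the start, and in the exonic part of the same window, which is not printed, 1 TAATCC on the opposite strand with 40 bases to the start. Rxrg had 1 AGGTCA at its second start, with 82 bases to it. No motif was found in the Prdm1 window. Of the start sites not shown, 1 of Rorb had a TGCTGA with 71 bases to the start. The other windows of Thrb (chr14:17981394-17981643) and of Rxrg (chr1:167598112-167598361) held no motif. For both genes the start shown is thus the one with an AGGTCA. Which start was used in cones cannot be read from 3′ counts.

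Cells were sorted into classes by clustering without the 7 factors, and clusters were named by other markers. The control matrix held 14305 barcodes and 79017429 UMIs (unique molecular identifiers, each marking 1 captured transcript), and the mutant matrix 12222 barcodes and 76272867 UMIs. After limits on genes and mitochondrial UMIs and removal of likely doublets, 12449 control and 10867 mutant cells were kept. The photoreceptor lineage comprised 1593 control and 1683 mutant cells in 4 classes. These were precursor-like cells (371 and 340), early photoreceptor-like cells (674 and 720), rod-like cells (373 and 375) and cone-like cells (175 and 248). They are called precursors, early photoreceptors, rods and cones from here on. The rod cluster carried 8 of 11 rod markers and 4 of 11 cone markers, the cone cluster 9 of 11 cone markers and 4 of 11 rod markers, and the early cluster 5 of 7 markers of any photoreceptor with 1 of 11 rod markers and 4 of 11 cone markers. Neurogenic-like cells, the dividing and newly postmitotic cells before the precursor stage, numbered 959 and 1030. Ganglion, horizontal and bipolar cells did not form named clusters. Of the barcodes, 59 occurred in both libraries (0.412% of control and 0.483% of mutant). Expression levels are given in CPM, the UMIs of a gene scaled to 1000000 UMIs of its class and library. Because members and classes come from the same cells, values between classes are described without a test.

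Myrf, the targeted gene, had 192 CPM (179 to 206) in control and 23.9 (18.3 to 30.5) in mutant pigment cells. In the photoreceptor lineage it had 8 UMIs in control and 6 in mutant, so its loss could not be read in these cells. A 3′ count does not show whether the deleted part is present.

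The pools differed in sex. In the lineage, 973 of 1593 control cells but 165 of 1683 mutant cells had UMIs of Y-linked genes and none of Xist, and 22 control but 1326 mutant cells had Xist and no Y-linked UMI. Sex and genotype therefore cannot be told apart in the pools as a whole. Values in the cells with Y-linked UMIs alone are given for the factors and for 6 rod and cone genes, while finer clusters, co-detection and the counts over gene lists were not split by sex.

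Crx was nearly absent from progenitors, low in neurogenic cells and high in the photoreceptor lineage. Its level was 2.59 CPM in control and 3.26 in mutant progenitors, no higher than in endothelial-like cells (8.65 and 3.72), where Crx should be missing and which stand in for the level of free RNA. Neurogenic cells had 57.2 and 46.1, precursors 412 and 397, early photoreceptors 640.1 and 672, rods 748 and 748, and cones 563 and 573. Precursors had 7.20-fold (6.21 to 8.35) the neurogenic level in control and 8.61-fold (7.41 to 10.0) in mutant. Rods had 1.33-fold (1.18 to 1.5) and 1.31-fold (1.18 to 1.45) the cone level. With each cell thinned to 1000 UMIs, 28.0% of control and 37.5% of mutant precursors had a Crx UMI, as did 53.8% and 50% of rods and 46.5% and 47.7% of cones. At 2000 UMIs the precursor shares were 57.3% and 50%, so their order between libraries turned with the depth. Endothelial cells had one in 2.93% and 0.629% at 1000. Among the lineage classes the order was rods, early photoreceptors, cones and precursors in both libraries, with overlapping intervals for early photoreceptors and cones in control and for rods and early photoreceptors in mutant.

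Prdm1, the bipolar-fate repressor, was present in neurogenic cells and highest in early photoreceptors. Neurogenic cells had 106 and 114 CPM, against 9.02 and 8.87 in progenitors, 11.7-fold (9.71 to 14.2) and 12.8-fold (10.8 to 15.2) as much. Precursors had 313 and 345 CPM, early photoreceptors 452 and 484, rods 293 and 334, and cones 236 and 288 (control and mutant throughout). Early photoreceptors thus exceeded rods 1.54-fold (1.36 to 1.75) in control and 1.45-fold (1.30 to 1.62) in mutant, and exceeded cones 1.92-fold (1.63 to 2.27) and 1.68-fold (1.48 to 1.91). Rods and cones lay close together, at 1.25-fold (1.03 to 1.51) in control and 1.16-fold (0.997 to 1.35) in mutant. Endothelial cells had 33.7 and 28.7 CPM, above the progenitor level in both libraries and above mesenchyme or pericyte-like cells (8.21 and 5.14), so they were not read as a free RNA level for Prdm1.

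Rorb was broad, highest in precursors and lowest in cones among retinal classes. Its levels were 1502 and 1731 CPM in progenitors, 2863 and 3134 in neurogenic cells, 3100 and 3360 in precursors, 2400 and 2606 in early photoreceptors, 1288 and 1272 in rods, and 842 and 900 in cones. Amacrine-like cells had 2683 and 2758. These 7 retinal classes fell in the same order in both libraries (precursors, neurogenic cells, amacrine cells, early photoreceptors, progenitors, rods, cones), and no neighbouring intervals overlapped. Early photoreceptors had 1.86-fold (1.76 to 1.98) the rod level in control and 2.05-fold (1.94 to 2.16) in mutant. A Rorb UMI was found in 93.0% and 92.5% of precursors thinned to 1000 UMIs, in 65.3% and 68.4% of rods and in 51.2% and 51.0% of cones. Endothelial cells showed 184 and 103 CPM and red blood-like cells 164 and 299.2, so the classes outside the retina did not move one way.

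Nrl was low in precursors and higher in early photoreceptors. Precursors had 27.9 CPM in control and 45.3 in mutant (39 and 68 UMIs in all), and early photoreceptors had 392 and 402, 14.0-fold (10.2 to 19.9) and 8.88-fold (6.95 to 11.52) as much. Rods had 1050 and 1069, a further 2.68-fold (2.45 to 2.92) and 2.66-fold (2.46 to 2.88). Cones had 168 and 149, so rods exceeded cones 6.25-fold (5.19 to 7.59) and 7.19-fold (6.08 to 8.56). Neurogenic cells had 5.79 and 7.57 against 6.26 and 3.19 in endothelial cells, so they were near the endothelial level in control and 2.37-fold (1.00 to 6.83) above it in mutant, and progenitors were below it. After thinning, 61.6% and 67.6% of rods had an Nrl UMI, against 10.6% and 5.76% of cones.

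Nr2e3, the target of Nrl, was found mainly in rods and hardly in precursors. Only 2 UMIs were counted in the precursors of each library, 1.43 and 1.33 CPM, no higher than in endothelial cells (5.96 and 1.60). Early photoreceptors had 156 and 176 CPM and rods 1703 and 1896, 10.9-fold (9.76 to 12.2) and 10.8-fold (9.77 to 11.9) more. In cones Nr2e3 stood at 252 and 202, and rods exceeded cones 6.77-fold (5.81 to 7.91) in control and 9.41-fold (8.16 to 10.9) in mutant. A UMI of Nr2e3 was present in 9.42% and 10.2% of thinned early photoreceptors, in 78.3% and 80.2% of rods and in 11.2% and 7.41% of cones. Rods with the transcript carried a mean of 5.44 UMIs in control and 6.95 in mutant, with up to 23 and 36 in 1 cell.

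Thrb was concentrated in cones. Its level there was 510 CPM in control (377 UMIs) and 623 in mutant (637 UMIs). Rods had 28.4 and 58.4, early photoreceptors 15.1 and 27.8, precursors 3.58 and 7.33, and progenitors 7.44 and 9.82. Cones exceeded rods 18.0-fold (12.4 to 27.0) in control and 10.7-fold (8.40 to 13.7) in mutant. The interval of control rods overlapped that of control early photoreceptors, while the mutant intervals were apart. Of thinned cones, 39.4% and 41.6% had a Thrb UMI, against 1.45% and 3.63% of rods and 0.747% and 2.24% of early photoreceptors. Endothelial cells had 0.266% in control and 0 of 159 cells in mutant, which allows a share of cells with a UMI of up to 1.89%. Mesenchyme or pericyte-like cells had 0.754% and 0.695%, so the control early photoreceptor share was no higher than theirs. The 36 Thrb UMIs of control early photoreceptors came from 11 of 674 cells, with 12 in 1 cell, and the interval of their level (10.6 to 20.96 CPM) overlapped that of control pigment cells (6.93 to 13.4).

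Rxrg was less selective than Thrb. Cones had 214 and 262 CPM, rods 99.4 and 121, early photoreceptors 27.3 and 27.1, and precursors 5.73 and 4.66. The cone level was 2.15-fold (1.67 to 2.78) the rod level in control and 2.17-fold (1.78 to 2.66) in mutant, while rods had 3.63-fold (2.64 to 5.03) and 4.46-fold (3.37 to 5.95) the level of early photoreceptors. Outside the lineage, the small astrocyte or glia-like class of 21 and 18 cells had 79.3 (36.3 to 151) and 41.9 (13.6 to 97.8) CPM, from 9 and 5 UMIs.

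**Figure D1:**
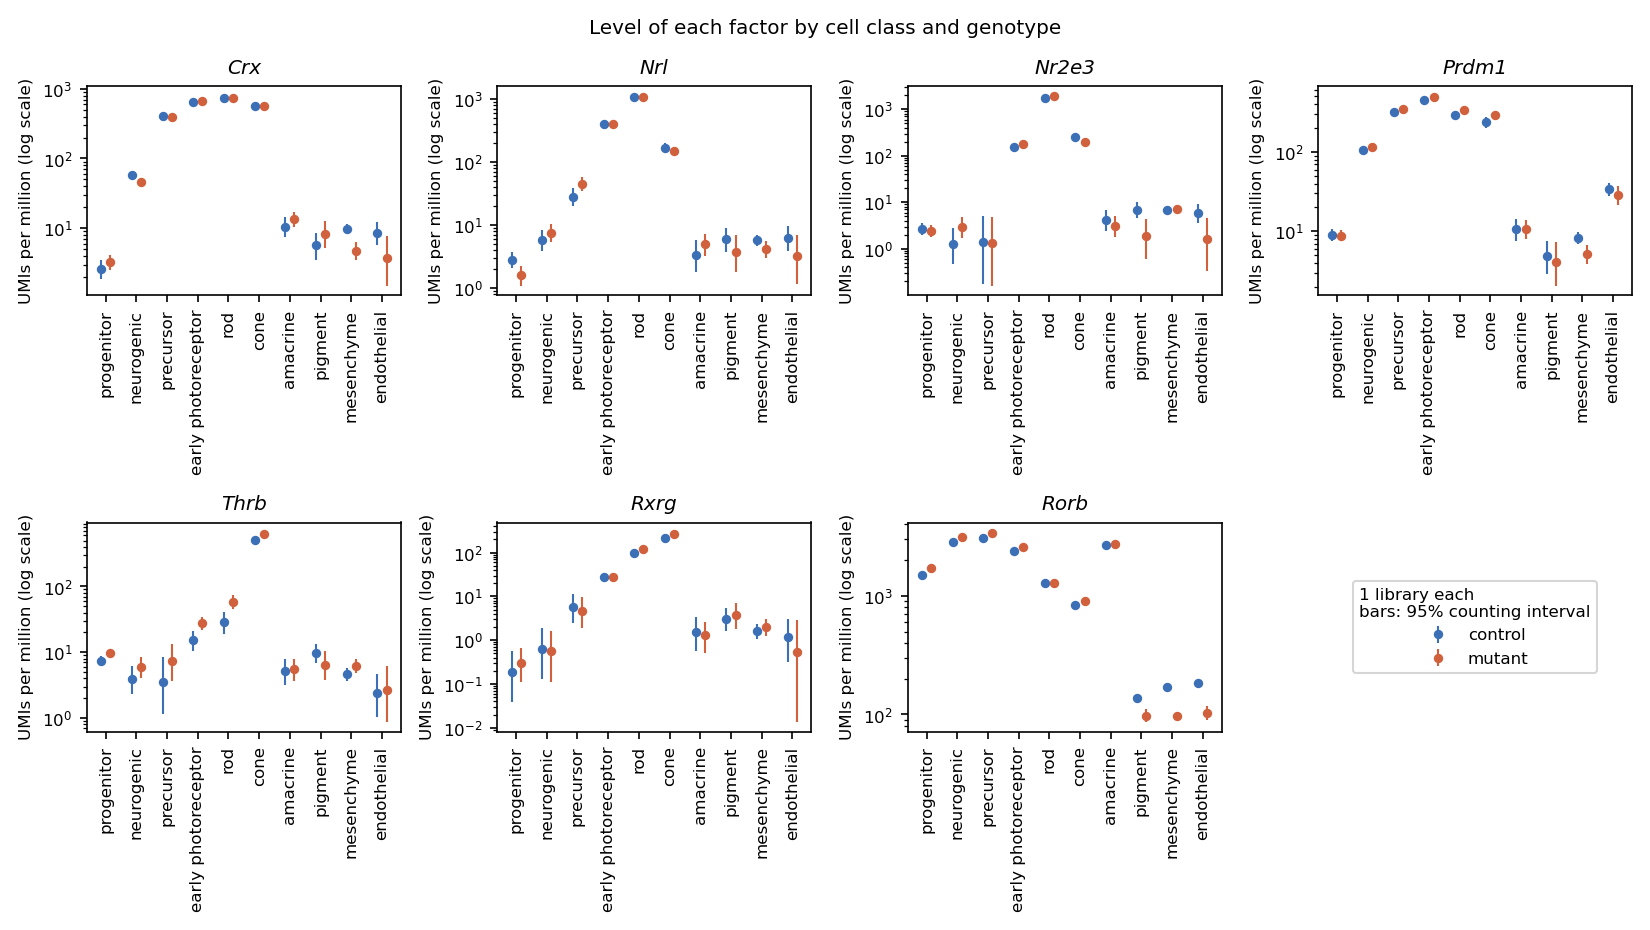
Level of each factor in 10 cell classes, as CPM (UMIs of the gene scaled to 1000000 UMIs) on a log axis, with control and mutant side by side and bars for the 95% counting interval. Nr2e3 stands at 1703 (control) and 1896 (mutant) in rods and at 1.43 and 1.33 in precursors, Thrb at 510 and 623 in cones, and Rorb at 842 or more in every retinal class.

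Finer clustering split the lineage into steps and showed the factors one after another. Dividing neurogenic cells fell into 2 finer clusters, in which Prdm1 had 73.5 and 89.3 CPM in control and 94.6 and 99.1 in mutant, while Crx had no more than 14.2. The next 2 neurogenic clusters, led by Sstr2 and Crip3 and by Olig2 and Mybl1, had Prdm1 at 129.5 to 134.7 and Crx at 61.3 to 110.0. The Sstr2 cluster had Atoh7, a proneural factor of early-born retinal neurons, at 2150 and 2488. Crx in this cluster was 110.0 (88.5 to 135) in control and 61.3 (46.9 to 78.8) in mutant, with intervals apart. A further finer cluster, also named neurogenic and led by Dll1, had Prdm1 at 7.96 and 19.4 and Crx at 6.63 and 6.89. It held 379 control cells, while the other neurogenic finer clusters held 380, 200, 186 and 180. The latter nearly fill the neurogenic class of 959 control cells, so most of the Dll1 cluster appears to lie outside that class.

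Finer clustering gave 2 clusters that were both named precursor-like, of which one was led by 3110035E14Rik and Gem and the other by Fabp7. Nrl went from 29.9 and 43.1 CPM in the first to 255 and 287 in the Fabp7 cluster, 889 and 807 in a cluster with Pcp2 and Samd7, and 1075 and 1164 in a cluster with Sag and Gngt1, genes of rod phototransduction. Nr2e3 over the same 4 clusters was 0.712 and 0.664, then 23.9 and 18.7, then 869 and 987, then 2030 and 2159. Nr2e3 was thus low in the Fabp7 cluster, where Nrl was well above its level in the other precursor cluster. Prdm1 and Rorb went the other way from the Fabp7 cluster on: Prdm1 from 464 and 490 to 379 and 438 and then 278 and 306, and Rorb from 2509 and 2786 to 1836 and 1874 and then 1150 and 1121. Thrb along these 4 clusters was 3.56, 11.4, 20.2 and 39.9 in control and 7.30, 27.5, 38.9 and 54.4 in mutant, low throughout against 510 and 626 in the cone cluster. A shallow cluster of 71 and 30 cells, with a median of 917 and 778 UMIs, was left unnamed at this step, but 99.0% of its cells stood in the 4 lineage classes. Most were rods (46 and 24) and precursors (21 and 6), and without them the lineage log2 ratio of Thrb was 0.59 and that of Nr2e3 0.18.

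**Figure D2:**
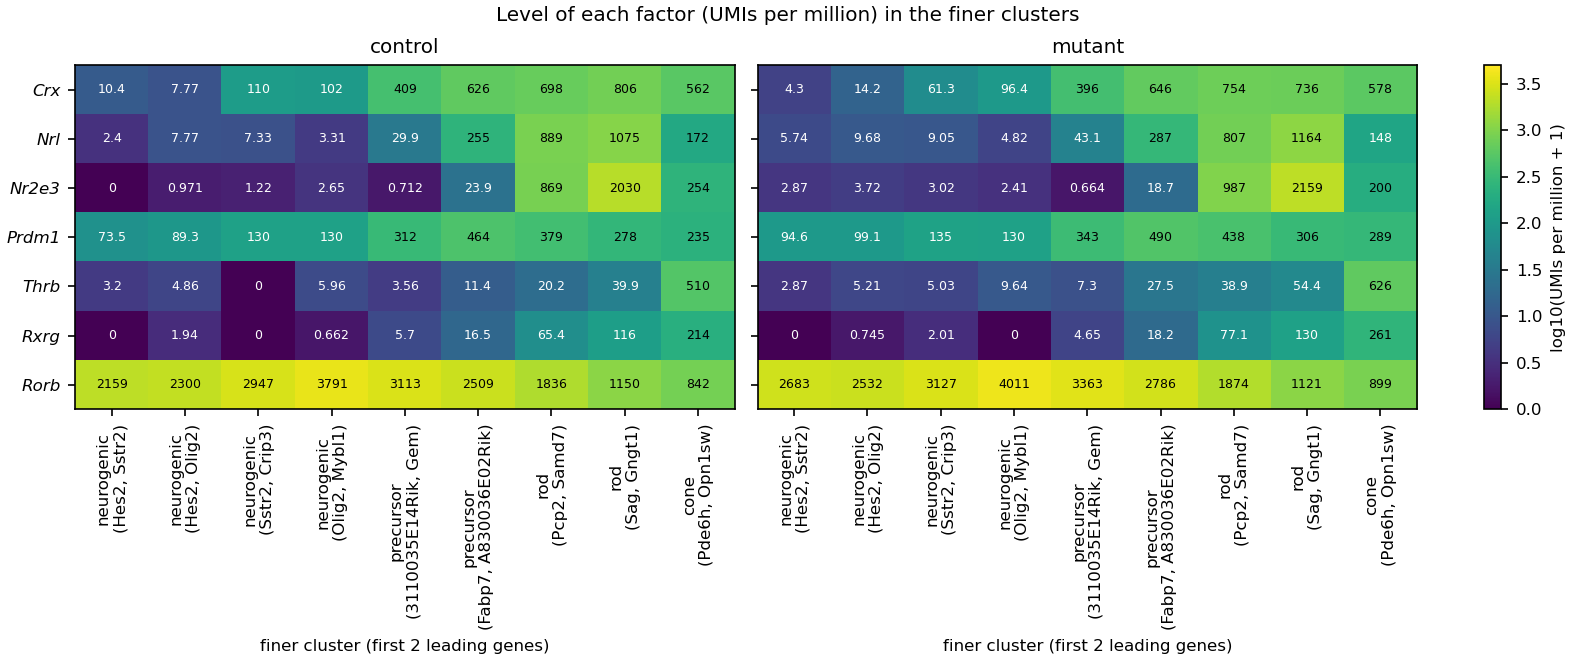
Heat map of the 7 factors in 9 finer clusters, set by hand in an order from dividing neurogenic cells to rods and cones. Control and mutant are in separate panels, with colour for log10 of CPM plus 1. Prdm1 is present from the dividing neurogenic clusters on (73.5 in control), Crx from the 2 neurogenic clusters led by Sstr2 with Crip3 and by Olig2 with Mybl1, Nrl goes from 29.9 in the precursor cluster led by 3110035E14Rik to 255 in the Fabp7 cluster, and Nr2e3 from 23.9 in the Fabp7 cluster to 869 in the next.

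Co-detection was read in cells thinned to 2000 UMIs, in which a missing UMI can be a transcript that was not captured. In neurogenic cells, 15.3% of control and 18.4% of mutant cells had Prdm1 without Crx, 6.55% and 6.73% had Crx without Prdm1, and 2.78% and 2.81% had both. Both transcripts were found in 21.7% and 24.1% of precursors and in 37.7% and 42.6% of early photoreceptors. Otx2, which acts upstream of both, was detected in 76.6% and 74.4% of neurogenic cells. Crx was found in 12.0% of neurogenic cells with Otx2 in either library, against 0.474% (0.012 to 2.61) and 2.35% (0.868 to 5.05) of those without. Prdm1 was found in 20.6% and 24.3% of neurogenic cells with Otx2 and in 9.95% (6.27 to 14.8) and 12.2% (8.41 to 16.8) of those without.

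For the rod pair, 49.5% of control and 47.1% of mutant early photoreceptors had neither transcript, 36.5% and 37.5% had Nrl alone, 11% and 12.4% had both, and 2.95% and 3.03% had Nr2e3 alone. In rods 77.8% and 77.0% had both. No Nr2e3 UMI was found in the thinned precursors of either library (337 and 320 cells), so the pair could not be read there.

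For the cone pair, 27.4% of control and 23.8% of mutant cones had Thrb and Rxrg, 32.3% and 37.2% Thrb alone and 14.6% and 17.3% Rxrg alone. In rods Rxrg was mostly found without Thrb, at 14.2% and 20.4%, against 0.346% and 0.898% with both.

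Factors of opposite fates met in a minority of cones. Nrl and Thrb were found together in 9.76% of control and 3.46% of mutant cones (intervals 5.68 to 15.4 and 1.51 to 6.71), and in 2.77% and 5.39% of rods. Cones with Nrl had Nr2e3 in 50% (32.9 to 67.1) in control and 50% (30.7 to 69.3) in mutant, against 7.81% (3.81 to 13.9) and 9.36% (5.73 to 14.2) of cones without Nrl. They had Thrb in 44.4% (27.9 to 61.9) and 28.6% (13.2 to 48.7), against 64.1% (55.1 to 72.3) and 65.5% (58.5 to 72.0). In the mutant these Thrb intervals were apart, and in the control they overlapped. Cones with Nrl were also deeper before thinning, with a median of 5294 and 5109 UMIs against 3618 and 3677, and the part of remaining doublets in these cells was not tested.

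Cones with at least 1 Nr2e3 UMI, 39 in control and 44 in mutant, can be described in more detail. Their summed level of 13 rod genes was 3502 and 2829 CPM, against 2274 and 1646 in cones without Nr2e3. Nrl stood at 409 and 405 against 52.1 and 62.7, and Thrb at 334 and 421 against 595 and 691. Their median depth was 5668 and 4123 UMIs, against 3562 and 3556. For comparison, the same rod genes summed to 8482 and 7244 CPM in rods, with Guca1b (control) and Gnat1 (mutant) at 0, and to 537 and 558 in endothelial cells. In all cones together they summed to 2673 and 1943, with Gnat1 and Pde6a at 0 in control.

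**Figure D3:**
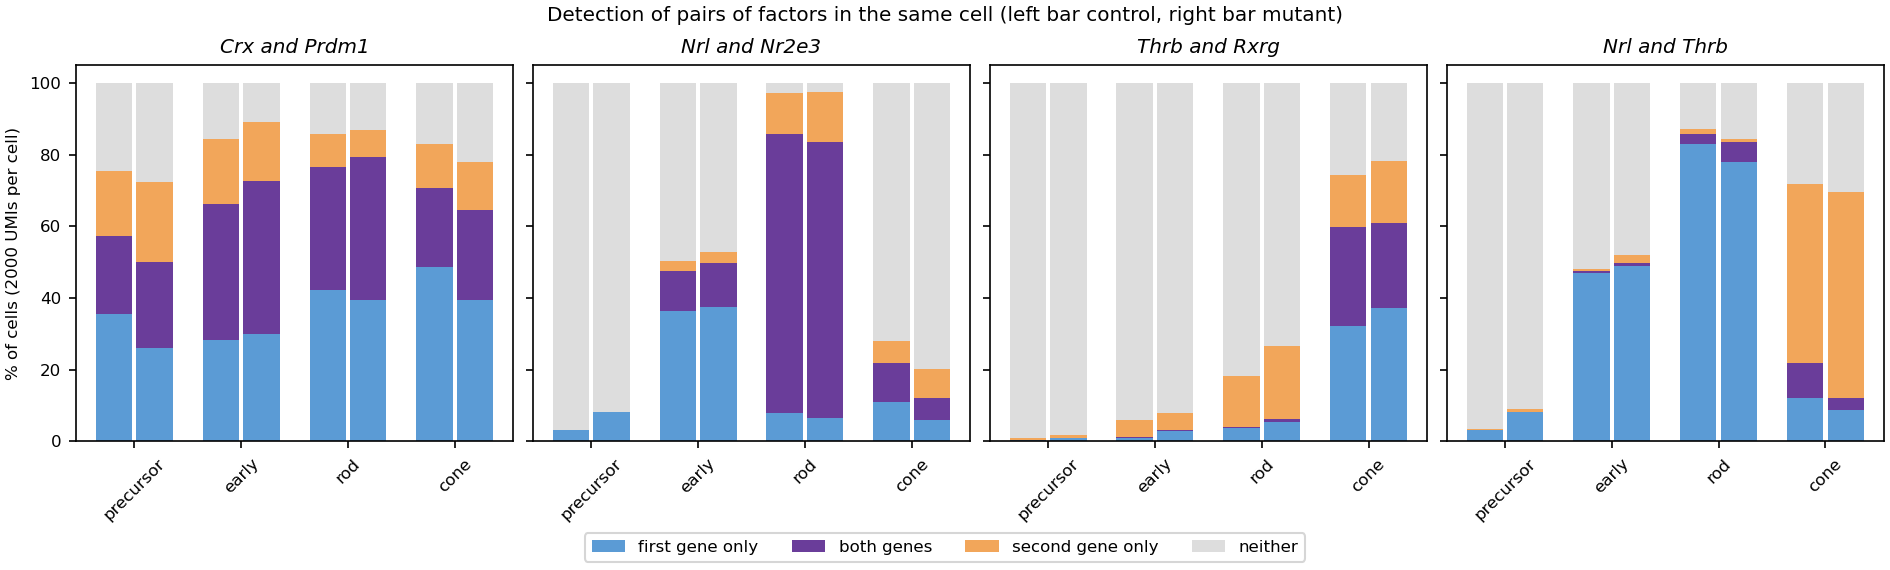
Share of cells (%, thinned to 2000 UMIs) with the first factor only, both, the second only or neither, for 4 pairs in precursors, early photoreceptors, rods and cones, with control as the left bar and mutant as the right bar of each class. Nrl and Nr2e3 are together in 77.8% of control and 77.0% of mutant rods, and Thrb and Rxrg in 27.4% and 23.8% of cones.

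The genotypes were compared next, which asks whether the fate factors differ in retinas that arose with Rx>cre and floxed Myrf. Summed over the lineage, Thrb had the largest ratio of the 7 factors. It stood at 80.5 CPM in control and 121 in mutant, a log2 ratio of mutant to control of 0.59 (0.43 to 0.76), or 1.51-fold. Rxrg followed with 60.3 and 76.9 CPM and a log2 ratio of 0.35 (0.15 to 0.55). Nr2e3 had 424 and 480 (0.18, 0.10 to 0.26), Prdm1 358 and 393 (0.13, 0.05 to 0.22), Rorb 2158 and 2250 (0.06, 0.03 to 0.10), Nrl 396 and 413 (0.06, −0.02 to 0.14) and Crx 593 and 609 (0.04, −0.03 to 0.10). The median log2 ratio was 0.13 over the 7 factors and 0.04 over all genes with at least 100 UMIs.

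At least 1.5-fold higher in the mutant was 1 of the 7 factors, Thrb, against 1.67% of the 9124 genes measured in the lineage. The counting interval lay above 0 for 5 of 7 factors, against 11.7% of genes, and below 0 for none, against 6.26%. Whether an interval clears 0 depends on the number of UMIs, and Rorb cleared it at 1.04-fold with 12018 and 14845. By size, the ratio of Thrb was above those of 98.4% of genes and that of Rxrg above 92.7%. Nr2e3 was above 77.4%, Prdm1 above 70.0% and Rorb above 55.3%. Of these 5, the ratio of Rorb turned to −0.16 in cells that carried Y-linked UMIs without Xist, that of Nr2e3 to −0.042 under a mitochondrial limit of 5%, and that of Rxrg to −0.027 in cells up to 2000 UMIs. In cells with Xist but nothing from the Y, 22 in control, Nr2e3 turned to −0.92 and Rxrg to −0.52. Those intervals hold no variation between animals.

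Part of the Thrb ratio went with the mix of classes, as cones made up 10.99% of control and 14.7% of mutant lineage cells. With the same mix of the 4 classes in both libraries the log2 ratio of Thrb was 0.41. Within classes the Thrb interval lay above 0 in cones, rods and early photoreceptors. In cones the log2 ratio was 0.29 (0.10 to 0.48), or 1.22-fold. In rods it was 1.04 (0.41 to 1.70), or 2.06-fold, from 30 and 76 UMIs. In early photoreceptors it was 0.88 (0.29 to 1.49), or 1.84-fold, from 36 and 77 UMIs, but the interval was apart from 0 in only 2 of the 4 alternatives that named this class (0.12 to 1.13). Unthinned, Thrb was found in 25 of 373 control rods (6.70%) and 42 of 375 mutant rods (11.2%), and in 11 of 674 (1.63%) and 35 of 720 (4.86%) early photoreceptors. Progenitors also had more, with a log2 ratio of 0.40 (0.06 to 0.74).

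The ratios were also read in cells that carried Y-linked UMIs without Xist, by class as chosen after seeing the data. In these 973 control and 165 mutant lineage cells the log2 ratio of Thrb was 0.23, below the interval over all cells (0.43 to 0.76). In cones it was 0.32 (−0.14 to 0.76), with 494 and 616 CPM in 103 and 23 cells. In rods it was −0.68 (−3.82 to 1.35), from 21 UMIs in 174 control cells and 2 in 28 mutant cells, and in early photoreceptors 0.23 (−1.52 to 1.65), from 24 and 5 UMIs. These counts were too low to set a direction, and both intervals hold the values over all cells. In progenitors Thrb gave 0.52 (−0.10 to 1.11).

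Nr2e3 in the same cells was higher in mutant rods, at 1605 and 2766 CPM (log2 0.79, 0.58 to 0.99), and in cones its ratio was 0.21 (−0.39 to 0.76). Crx in neurogenic cells stood at 65.6 CPM in 564 control cells and 17.4 in 128 mutant cells (−1.91, −2.85 to −1.10), and in cones at 567 and 320.0 (−0.83, −1.45 to −0.25). Nrl in precursors was 26.4 and 59.7 (1.18, 0.01 to 2.24). Prdm1 gave 0.43 (0.06 to 0.79) in precursors and 0.26 (0.01 to 0.51) in early photoreceptors. Rxrg in rods was 98.0 and 202 (1.05, 0.19 to 1.83). Rorb was 3310 and 2602 in precursors (−0.35, −0.49 to −0.21), against the direction over all cells, and gave −0.06 (−0.13 to 0.01) in neurogenic cells, −0.07 (−0.19 to 0.04) in early photoreceptors, −0.30 (−0.61 to −0.01) in rods and 0.19 (0.15 to 0.24) in progenitors.

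Rods with a Thrb UMI had the rod factors at levels like those of rods in general. In control they had Nrl at 911 CPM and Nr2e3 at 1668, and in mutant at 1113 and 2091, while rods without Thrb had Nrl at 1064 and 1062. Their Opn1sw level, the short-wave cone opsin, was 338 and 269 CPM, against 191 and 393 in rods without Thrb.

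The other factors were read class by class. A gene counted as measured in a class with at least 100 UMIs over both libraries. Nrl in precursors and Thrb in early photoreceptors and rods reached this minimum only through their mutant UMIs, so their folds are descriptions and no count of factors is read from them. Nrl in precursors was at 1.62-fold (log2 0.70, 0.11 to 1.30), and 1.78% of 4437 genes were at least 1.5-fold higher there. Under the 5 alternatives that named precursors this ratio ran from 0.15 to 1.21 with the interval apart from 0 in 3, and an Nrl UMI was found in 3.08% of control and 3.00% of mutant precursors thinned to 1000 UMIs and in 3.26% and 8.13% at 2000. In early photoreceptors and in rods no factor but Thrb reached 1.5-fold, and 1.78% of 6529 and 2.06% of 4178 genes did. In cones 0 of 7 reached 1.5-fold, against 2.07% of 3240 genes. The cone interval lay above 0 for 3 factors, Thrb, Prdm1 (0.29, 0.02 to 0.57) and Rxrg (0.29, 0.00 to 0.59), against 6.33% of genes, and below 0 for 1, Nr2e3 (−0.32, −0.61 to −0.03), against 4.91%. Under 6 alternatives of processing the interval was apart from 0 in 3 for Prdm1 (0.19 to 0.38), in 2 for Rxrg (0.15 to 0.38) and in 3 for Nr2e3 (−0.45 to −0.07). In the cells with Y-linked UMIs alone Nr2e3 was at 0.21, with an interval that held 0 (−0.39 to 0.76). In rods Nr2e3 had a log2 ratio of 0.15 (0.07 to 0.24) while Crx had 0.00 (−0.14 to 0.14) and Nrl 0.03 (−0.09 to 0.14).

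Upstream, Crx in neurogenic cells had a log2 ratio of −0.31 (−0.57 to −0.06), from 267 and 250 UMIs, and Prdm1 in the same cells 0.10 (−0.07 to 0.28). Over all cells Rorb had log2 ratios of 0.20 in progenitors, 0.13 in neurogenic cells and 0.12 each in precursors and early photoreceptors, with intervals above 0, and −0.02 (−0.12 to 0.09) in rods. In the cells with Y-linked UMIs alone, given above, only the progenitor interval of these 4 stayed above 0. In endothelial and mesenchyme or pericyte-like cells, which stand in for the level of free RNA, Rorb had log2 ratios of −0.83 in both, and Crx in mesenchyme −1.03. The mesenchyme class was not alike in both libraries, as a shallow cluster (median 1722.5 UMIs) held 682 of its 1957 control cells but 40 of its 884 mutant cells. Thrb in mesenchyme went from 4.67 to 6.19 CPM (0.41, −0.09 to 0.90) and Nr2e3 from 6.77 to 7.05. The part of free RNA in the ratios above was not tested.

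**Figure D4:**
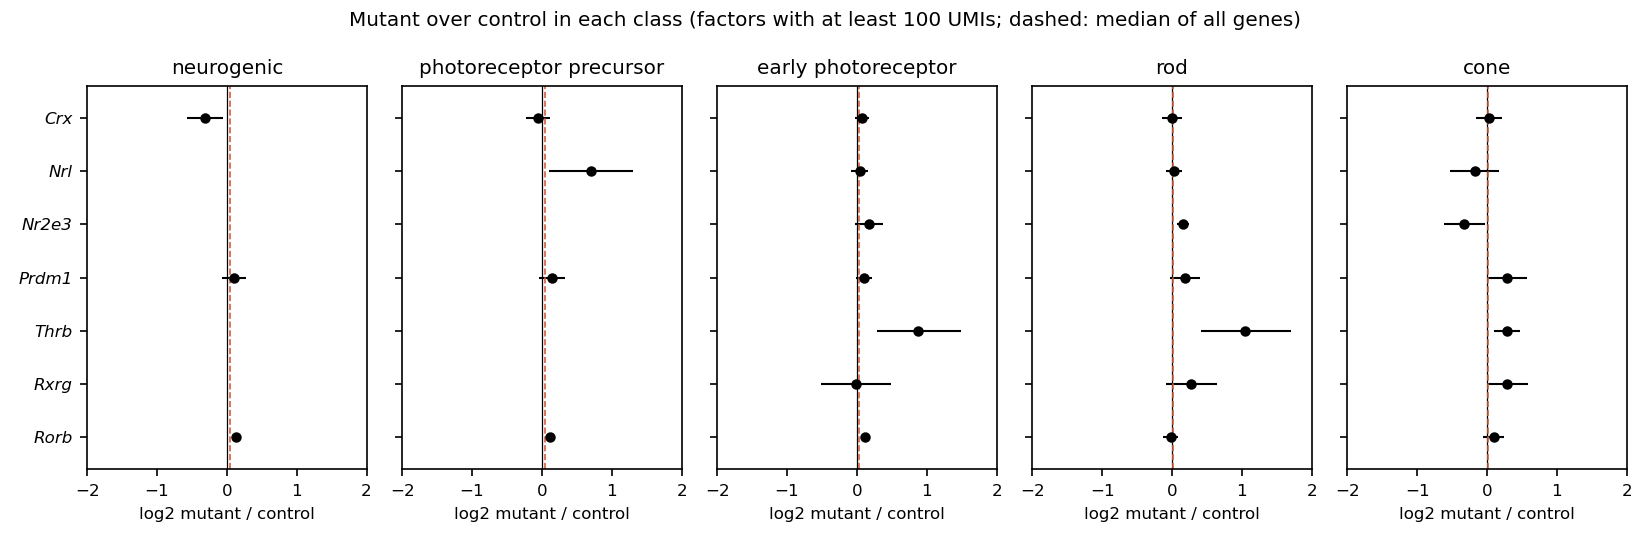
Log2 ratio of mutant to control with its 95% counting interval for each factor with at least 100 UMIs in neurogenic cells, precursors, early photoreceptors, rods and cones, with a dashed line at the median of all genes in the class. Thrb lies at 0.88 in early photoreceptors, 1.04 in rods and 0.29 in cones, and Nr2e3 at 0.15 in rods and −0.32 in cones.

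Genes that work with these factors were read from 5 lists, chosen with earlier results of these data known. Of 22 other regulators of photoreceptor fate, 20 had at least 100 UMIs in the lineage. Their intervals lay above 0 in 2 and below 0 in 5, against 11.7% and 6.26% of all genes of the lineage, with a median log2 ratio of −0.01. Otx2, the upstream homeodomain factor, had 2504 and 2422 CPM (−0.05), Neurod1, a proneural factor kept on in photoreceptors, −0.03, its relative Neurod4 −0.06 and Casz1, a zinc finger factor, −0.14. Of 6 factors of the bipolar fate, 3 were measured, with 1 above 0, 0 below and a median of 0.13. Among them were Lhx4 (0.13) and Prdm8 (−0.07).

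Genes of rods and cones moved in both directions over the lineage, in which cones made up 10.99% of control and 14.7% of mutant cells. The intervals of all genes lay above 0 in 11.7% and below in 6.26%. Of 13 rod genes 10 were measured, 1 above 0 and 3 below, with a median log2 ratio of −0.10. Sag, the rod arrestin, had 472 CPM in control and 373 in mutant (−0.34), Gngt1, the rod transducin gamma subunit, 354 and 231 (−0.62), and Rom1, a disc rim protein, 0.06. Of 11 cone genes 9 were measured, 5 above 0 and 2 below, with a median of 0.16. Gngt2, the cone transducin gamma subunit, had 4104 and 4594 CPM (0.16), Gnb3, the cone beta subunit, 769.8 and 1014 (0.40), Opn1sw 254 and 257 (0.02), and Pde6h, an inhibitory subunit of the cone phosphodiesterase, 228 and 160.1 (−0.51). Of 13 genes of both types, 10 were measured, with 2 above 0, 2 below and a median of 0.04. In the cells with Y-linked UMIs alone, the lineage ratios were −1.08 for Sag, −1.15 for Gngt1, 0.09 for Gngt2, 0.72 for Gnb3, 0.00 for Opn1sw (−0.26 to 0.25) and −1.05 for Pde6h.

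The cone list was not confined to cones. Its 11 genes summed to 8067 CPM in control and 9356 in mutant rods, against 8482 and 7244 for the 13 rod genes. Gngt2 was among the leading genes of the finer rod cluster with Pcp2 and Samd7. In control cells with Y-linked UMIs alone, Gngt2 had 6760 CPM in rods and 8177 in cones. With this limit, cone genes were read within classes. In precursors 2 of the 2 measured had intervals above 0 (median log2 ratio 0.41) and in early photoreceptors 3 of 4 (median 0.25), with none below in either, against 7.28% and 8.42% of all genes above. In rods, 3 of the 4 cone genes measured had intervals above 0 and none below, against 7.11% and 5.31% of all genes, with a median log2 ratio of 0.33, and Opn1sw went from 204 to 375 CPM (0.88). In cones, where 9 were measured, 1 lay above 0 and 3 below, against 6.33% and 4.91%, with a median of −0.00, and Opn1sw had 1577 and 1141 CPM (−0.47). Pde6h in cones had 1695 and 1007 (−0.75). Among rod genes, in rods 4 of 9 intervals were below 0 and 0 above, with a median of −0.11, and in cones 2 of 6 were below and 0 above, with a median of −0.18. In precursors 2 rod genes were measured, 1 above 0 and 0 below (all genes 7.28% and 4.06%), with a median of 0.23, and in early photoreceptors 3, 1 above and 0 below (all genes 8.42% and 4.9%), with a median of 0.015. Sag in cones had 454 and 195 CPM (−1.22). In the cells with Y-linked UMIs alone the ratio of Opn1sw was 1.75 (1.27 to 2.21) in rods and −0.46 (−0.79 to −0.15) in cones, and that of Sag in cones −2.87 (−4.51 to −1.63), from 209 and 5 UMIs in 103 and 23 cells. Opn1mw, the middle-wave opsin, had no UMI in the rods and cones of either library.

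Genes most like each factor were found by Pearson correlation of log2(CPM + 1) over 28 sums, 14 classes in each of the 2 libraries, among 13584 genes. These sums share libraries and classes, so r is a description. Closest to Crx were Epha8 (0.969), Lingo3 (0.966) and Neurod1 (0.959), and closest to Prdm1 were Lingo3 (0.953), Crx and Neurod1 (0.938 each). Nrl was nearest to Rom1 (0.961) and Prph2 (0.951), both disc rim proteins, and to Platr17 (0.945). For Nr2e3 they were Samd11 (0.978), Fabp12 (0.970) and Pdc (0.964), the last a protein that binds transducin. Thrb was nearest to Aipl1 (0.911), Opn1sw (0.900) and Pgc (0.899), Rxrg to Ccdc136 (0.973), Lrit1 (0.955) and Ppm1n (0.949), and Rorb to Zic2 (0.971), Rasl10b (0.965) and Mir124-2hg (0.947). Between the factors themselves, r ran from 0.259 (Nr2e3 and Rorb) to 0.938 (Crx and Prdm1), with 0.891 for Nrl and Nr2e3 and 0.832 for Thrb and Rxrg.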

How the data were processed

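Raw UMI counts per gene and barcode had been deposited by the authors for 1 library of each genotype (10x Genomics 3′ chemistry, NovaSeq, mm10), for barcodes called as cells and with no normalization. The submitters' processing notes name Cell Ranger 7.1.0 and Seurat 4.1.1, while the matrix headers carry a different software version. The annotation and whether intronic reads were counted are not given in the sources used here. The study states an upper limit of 2000 UMIs per cell, but 80.2% of control and 92.1% of mutant barcodes exceed it, so no such limit was applied. The median barcode held 4201 and 4952 UMIs.

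Cells with at least 200 genes and at most 15% mitochondrial UMIs were kept (14131 control, 12027 mutant). Scrublet scores (scanpy 1.11.5) were cut at an expected rate of 0.8% per 1000 cells, which removed 1682 (11.9%) and 1160 (9.64%), because Scrublet's own threshold removed 0% of control cells. Seurat 5.3.0 (R 4.3.3) integrated both libraries on 2000 variable genes less the 7 factors (1995 used), with 30 components, resolution 1 for 34 clusters and resolution 3 for the finer clusters. A cluster was named from at least 3 markers found in 10% of its cells and 2-fold enriched. The limits for names were set after the clusters were seen. The early photoreceptor name was given to a cluster that carried the list for any photoreceptor with under 50% of the rod and of the cone lists. Clusters unnamed at the resolution that set the classes were left out, and names of finer clusters did not change the classes.

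Counts were summed per class and library. Ratios carry exact conditional Poisson intervals and shares exact Clopper-Pearson intervals (95%). Both cover counting error only, and no test was made because cells of 1 library are not replicates. Shares used cells thinned to 1000 UMIs and the 21 pairs of co-detected factors cells thinned to 2000, without shallower cells. In the lineage this left out 51 control and 34 mutant cells at 1000 UMIs. Genes with at least 100 UMIs over both libraries gave the background, and a count of 0 was read as at most 3. Python 3.11.15, numpy 2.4.6, pandas 2.3.3, scipy 1.17.1 and matplotlib 3.10.9 were used, and the scripts were tested on simulated data.

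Named were all 7 factors, the 4 genes of each list with the most lineage UMIs (1 is not reported here), and the 3 genes most like each factor among genes with at least 200 UMIs, over classes of at least 50 cells. Further genes that mark finer clusters or were compared in cones and rods were named after their values were seen. Members and lists were chosen with earlier results of these data known, and the alternatives said to be added were chosen after seeing the data. Every column of counts belonged to a sample.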

Additional observations from a re-analysis of the deposited data

Results flagged for a closer look

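Nr2e3, Prdm1 and Rorb each had a class in which the counting interval of the mutant to control ratio lay below 0 and another in which it lay above 0. For Nr2e3 the log2 ratio was −0.32 in cones and 0.15 in rods, but the cone interval was apart from 0 in only 3 of 6 alternatives. In the cells with UMIs from the Y alone the cone ratio of Nr2e3 was 0.21, with an interval that held 0 (−0.39 to 0.76). For Prdm1 it was −0.67 in mesenchyme or pericyte-like cells and 0.29 in cones. The cone interval of Prdm1 was also apart from 0 in only 3 of 6 alternatives. In the cells with UMIs from the Y alone it was −0.11 to 1.18, around a ratio of 0.55. The mesenchyme class differed in make-up, as a shallow cluster (median 1722.5 UMIs) held 682 of its 1957 control cells but 40 of its 884 mutant cells. For Rorb it was −0.83 in endothelial cells and 0.20 in progenitors. The difference between the classes was not tested in any of the 3, since each genotype had 1 library.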

How the results depend on the processing

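No paired analysis was possible because each genotype had 1 library, and no replicate could be left out. Over 20 alternatives the lineage log2 ratio of Thrb stayed above 0 in all 20 (0.23 to 1.68) and at least 1.5-fold in 10, and that of Prdm1 stayed above 0 in 20. The cause of the changes below was not tested, beyond the smaller number of cells that some settings leave. With Scrublet's own threshold Crx gave 0.17, Nrl 0.20, Nr2e3 0.30, Prdm1 0.25 and Rorb 0.10. In cells up to 2000 UMIs (159 control, 104 mutant), Crx gave 0.27, Nrl −0.077, Prdm1 0.23, Thrb 1.68, Rorb 0.28 and Rxrg −0.027, a reversal. A mitochondrial limit of 5% turned Nr2e3 to −0.042. Thinning to 1000 UMIs gave 0.074 for Nr2e3 and 0.87 for Thrb, and marker gates in place of clusters gave 0.23 for Prdm1. Setting the median ratio of all genes to 0 gave 0.022 for Rorb.

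In cells that had Xist but no UMI from the Y (22 control, 1326 mutant), Nrl gave −0.43, Prdm1 0.36, Thrb 1.17 and Rorb 0.45, while Nr2e3 turned to −0.92 and Rxrg to −0.52. In cells that had UMIs from the Y but no Xist (973 and 165), Crx gave −0.065, Nrl −0.044, Nr2e3 0.41, Prdm1 0.33 and Thrb 0.23, while Rorb turned to −0.16. The same mix of classes, added after seeing the data, gave 0.41 for Thrb and 0.10 for Rorb, and neither adding the unnamed cluster of photoreceptor and amacrine genes (107 and 105 cells) nor leaving out the shallow finer cluster moved a factor beyond its interval.

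Genes past 1.5-fold in either direction numbered 272 at a minimum of 100 UMIs, 567 at 50 and 119 at 200, and past 2-fold 77, 153 and 45. By class, under 6 alternatives of doublets, depth, mitochondrial limit and clustering added after seeing the data, Thrb was above 0 with its interval apart in 6 of 6 in rods (0.52 to 1.58) and in cones (0.18 to 0.31), and in 2 of the 4 that named early photoreceptors (0.12 to 1.13). Nr2e3 stayed above 0 in 6 of 6 in rods (0.02 to 0.90) and below 0 in 6 of 6 in cones (−0.45 to −0.07), with the interval apart in 5 and in 3. In cones Prdm1 (0.19 to 0.38) and Rxrg (0.15 to 0.38) had it apart in 3 and in 2. Nrl in precursors was above 0 in all 5 that named them (0.15 to 1.21), apart in 3, and Crx in neurogenic cells below 0 in 6 of 6 (−0.44 to −0.21), apart in 5. In the cells with UMIs from the Y alone, by class and also added, Thrb in rods was −0.68 (−3.82 to 1.35) and Nr2e3 in cones 0.21 (−0.39 to 0.76). Both intervals hold 0 and the values over all cells, so they set no direction.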
